A study of Mus musculus with 4 samples.

Results

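The 8 genes Anpep, Enpep, Xpnpep2, Dpp4, Ace, Mep1a, Mep1b and Tmprss15 encode peptidases of the intestinal brush border, and were taken by name from 21887 protein-coding genes. Open chromatin at them was compared between organoids exposed to BMP2 for 72 h and organoids at 0 h, with the assay for transposase-accessible chromatin (ATAC-seq), which cuts open chromatin with the Tn5 transposase. Every peak with its midpoint in one of these genes or within 50 kb of it was counted (mm10). It was classed as called in both libraries, at 72 h only or at 0 h only, by an overlap of at least 1 bp with any peak of the other library. Each library has a list at a p-value threshold of 1e-05 and a stricter one at 1e-10. A peak is called strict below where it is in the 1e-10 list, and weak where it is in the 1e-05 list alone. The 8 windows held 51 sites once overlapping peaks were merged.

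All libraries came from organoids grown from C57BL/6J mouse crypts of the proximal small intestine (jejunum), with 30000 cells a library. The 72 h organoids received 100 ng/mL recombinant BMP2 for 72 h in ER medium, which holds epidermal growth factor and R-spondin. The 0 h organoids stayed without BMP2 in CVENR medium, which holds the same 2 factors plus CHIR99021 (a GSK3 inhibitor), valproic acid (a histone deacetylase inhibitor) and Noggin (a BMP antagonist). BMP2, the removal of those 3 agents and any difference in time in culture therefore cannot be told apart. With a single library at each time point, nothing here is checked by replicates and no p-value is given. Libraries at 24 h and 48 h also belong to the series and were not analysed here. The 1e-05 lists hold 41343 peaks at 72 h and 35857 at 0 h, of which 60.6% and 55.5% are strict, and read depth and peak height are not known. Peaks within 1 kb of the start, or of either gene end where no RefSeq start was held, were present in both libraries at 9 of 9 epithelial and intestinal genes (Epcam, Cdh1, Krt8, Krt18, Vil1, Cdx1, Cdx2, Hnf4a, Gata4). At 8 genes of immune, endothelial and mesenchymal cells, only Col1a1 had such a peak, strict at 72 h and weak at 0 h.

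Dietary protein is cut to peptides by pancreatic enzymes, and peptidases anchored in the microvillus membrane of enterocytes finish the work next to the peptide and amino acid transporters. Aminopeptidases take residues from the amino end, carboxydipeptidases take pairs from the carboxyl end, and meprins cut inside the chain. Enteropeptidase stands at the head of the cascade because it activates trypsinogen. These enzymes are typical of differentiated villus enterocytes and scarce in crypt stem cells.

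At the starts of these genes the calls were mostly stricter at 72 h than at 0 h. At 4 starts called in both libraries (Enpep, Dpp4, Ace and Mep1a) the peak was strict at 72 h and weak at 0 h. Over all 9727 sites in both libraries within 1 kb of a RefSeq start, 4.99% had that order, 5.92% the opposite one, and 83.2% were strict in both. The share of 4 in 4 has an exact Clopper-Pearson 95% interval of 39.8% to 100.0%, which covers counting error only, as all intervals here do. Tmprss15 had a weak peak over its start at 72 h and none at 0 h, and Mep1b had the same at 1 of its gene ends. Anpep was the exception at the 1 RefSeq start held for it, with a weak peak over that start at 0 h and none at 72 h. Its site 5.84 kb inside the gene was strict at 72 h and weak at 0 h. Xpnpep2 had no peak near its start in either library. The shares over all sites given above cover sites in both libraries, and none is given for starts called in 1 library only. No member had a strict peak within 1 kb of its start at 0 h, but at Mep1a this depends on the RefSeq start used. A Mep1a site strict in both libraries lay 1.62 kb upstream of that start and 0.254 kb from the outer gene end. Measured from that end, Mep1a would be strict in both libraries and would not be among the 4. The epithelial genes above did not share the order of strict at 72 h and weak at 0 h, with 7 of 9 strict at 72 h and 9 of 9 strict at 0 h.

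The 250 bases before the start are shown for the 5 members whose start window was overlapped by a peak, because these are the stretches whose calls differ between the libraries. They come from RefSeq (GRCm38.p6, the assembly that mm10 denotes), run 5′ to 3′ in the direction of transcription, and end at the base before the start. Capitals mark matches, on either strand, to the letters searched for HNF1, CDX, GATA and KLF factors. The first 3 were called in both libraries, strict at 72 h and weak at 0 h. Tmprss15 was called at 72 h only, and Anpep at 0 h only.
Enpep (chr3:129332750-129332999, - strand): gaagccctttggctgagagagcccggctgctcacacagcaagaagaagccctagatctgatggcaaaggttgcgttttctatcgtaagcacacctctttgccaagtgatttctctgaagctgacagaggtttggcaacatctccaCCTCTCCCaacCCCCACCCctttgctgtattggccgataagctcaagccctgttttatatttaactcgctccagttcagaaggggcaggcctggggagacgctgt
Ace (chr11:105967698-105967947, + strand): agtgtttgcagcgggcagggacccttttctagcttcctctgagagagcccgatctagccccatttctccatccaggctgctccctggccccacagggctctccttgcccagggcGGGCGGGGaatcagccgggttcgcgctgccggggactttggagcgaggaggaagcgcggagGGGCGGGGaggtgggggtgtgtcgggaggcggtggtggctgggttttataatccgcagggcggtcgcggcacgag
Mep1a (chr17:43502774-43503023, - strand): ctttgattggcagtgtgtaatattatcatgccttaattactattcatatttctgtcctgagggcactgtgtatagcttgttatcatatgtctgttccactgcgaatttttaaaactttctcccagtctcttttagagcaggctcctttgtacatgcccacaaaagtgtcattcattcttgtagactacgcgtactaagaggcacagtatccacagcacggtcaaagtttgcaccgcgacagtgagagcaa
Tmprss15 (chr16:79091098-79091347, - strand): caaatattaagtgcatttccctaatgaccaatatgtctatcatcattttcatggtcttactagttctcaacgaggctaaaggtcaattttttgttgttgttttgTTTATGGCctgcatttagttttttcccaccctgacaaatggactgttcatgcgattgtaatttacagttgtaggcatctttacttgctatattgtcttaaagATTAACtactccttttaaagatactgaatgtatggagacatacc
Anpep (chr7:79848211-79848460, - strand): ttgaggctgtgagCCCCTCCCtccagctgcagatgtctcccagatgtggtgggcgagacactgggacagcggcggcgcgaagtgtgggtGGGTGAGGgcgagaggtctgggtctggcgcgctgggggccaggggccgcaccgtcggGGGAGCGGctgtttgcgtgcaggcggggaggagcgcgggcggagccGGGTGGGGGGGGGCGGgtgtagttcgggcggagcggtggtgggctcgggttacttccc

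RefSeq start windows were held for 7 of the 8 members, with 2 starts for Ace, which makes 8 windows. The letters CCNCNCCC of KLF factors (zinc finger proteins of epithelial differentiation), which can overlap one another, were found in 5 of the 8, against 45.9% of 32851 windows of the same length. Anpep held 7 of these matches and Mep1a none. The Tmprss15 window held GTTAAT, part of the HNF1 site (6.43% of all windows), and GCNATAAA of CDX factors (2.32%). The Dpp4 window held AGATAA of GATA factors (9.99%), although no peak reached it: the Dpp4 start peaks lay inside the gene. None of the 8 windows held an HNF4 match (CAAAGTCCA, CAAAGTTCA or CAAAGGTCA, any of them in 1.14% of all windows), a full HNF1 site (0.00913%), or the SMAD letters GTCTAGAC (0.167%) and GGCGCC (9.59%). The windows ranged in GC content from 34.0% at Tmprss15 and 41.6% at Mep1a to 67.2% at the first Ace start and 72.8% at Anpep, beside a median of 52.4% over all windows. A match is a description of letters only.

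**Figure D1:**
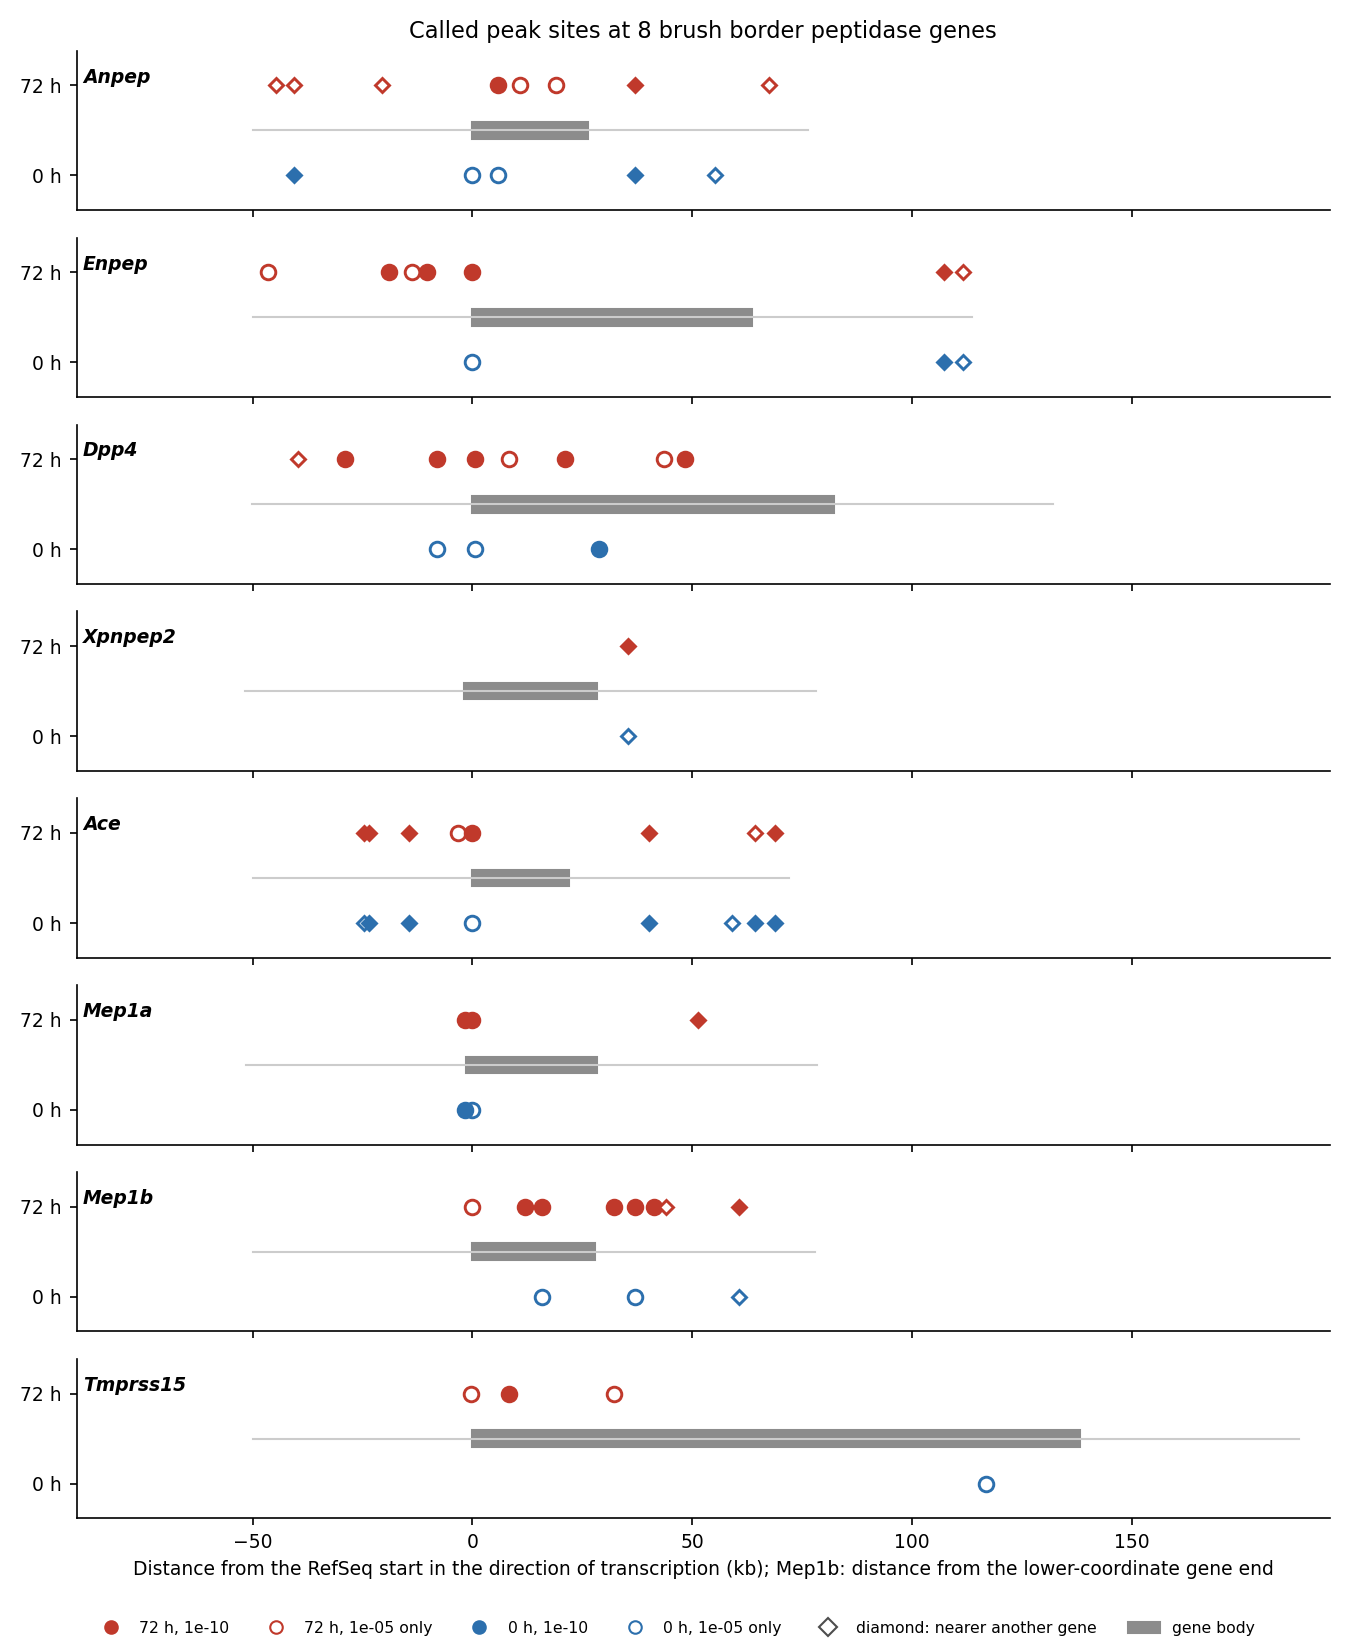
Peak sites at each gene by distance from the RefSeq start, in the direction of transcription (for Ace the first start, for Mep1b the lower-coordinate gene end). Points above the gene body are 72 h peaks and points below it 0 h peaks, filled where the 1e-10 threshold was passed, with diamonds where another gene is nearer. Of the 46 sites with a 72 h peak, 25 have no counterpart at 0 h beneath them, and the start points of Enpep, Dpp4, Ace and Mep1a are filled at 72 h and hollow at 0 h.

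Across the 8 windows, 26 of 50 peaks at 72 h were called at 72 h only, that is 52.0% (37.4 to 66.3), beside 30.6% of all 72 h peaks. At 0 h, 5 of 28 peaks were called at 0 h only, 17.9% (6.06 to 36.9), beside 20.7% of all 0 h peaks, so the 0 h share lay near the background. Away from starts the background at 72 h is higher: of all 72 h peaks over 1 kb from any RefSeq start, 42.9% were called at 72 h only, and of such 0 h peaks 28.1% at 0 h only. The interval of the 8 windows contains the first of these values. When a peak was kept only where the member itself was the nearest protein-coding gene, 20 of 29 peaks at 72 h were at 72 h only, 69.0% (49.2 to 84.7), and 3 of 13 at 0 h were at 0 h only, 23.1% (5.04 to 53.8). The peaks of a gene are not independent of each other, so these intervals are too narrow.

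Merged into sites, the 8 windows held 25 sites at 72 h only, 21 in both libraries and 5 at 0 h only. Of the 25, 10 were strict, and of the 5 at 0 h only, 1 was strict. Within 50 kb, a strict site at 72 h only was found at 5 of 8 members (Enpep, Dpp4, Mep1a, Mep1b and Tmprss15), beside 27.6% of all protein-coding genes. The Mep1a site lay inside the neighbouring gene Adgrf5. With the member as nearest gene the count was 4 of 8, for which no share over all genes is given. A strict site at 0 h only was found at 1 of 8, Dpp4, beside 10.5%. None of the 30 sites of 1 library only had a peak of the other library within 1 kb: the nearest was 2.58 kb away for a 72 h site and 4.42 kb for a 0 h site.

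**Figure D2:**
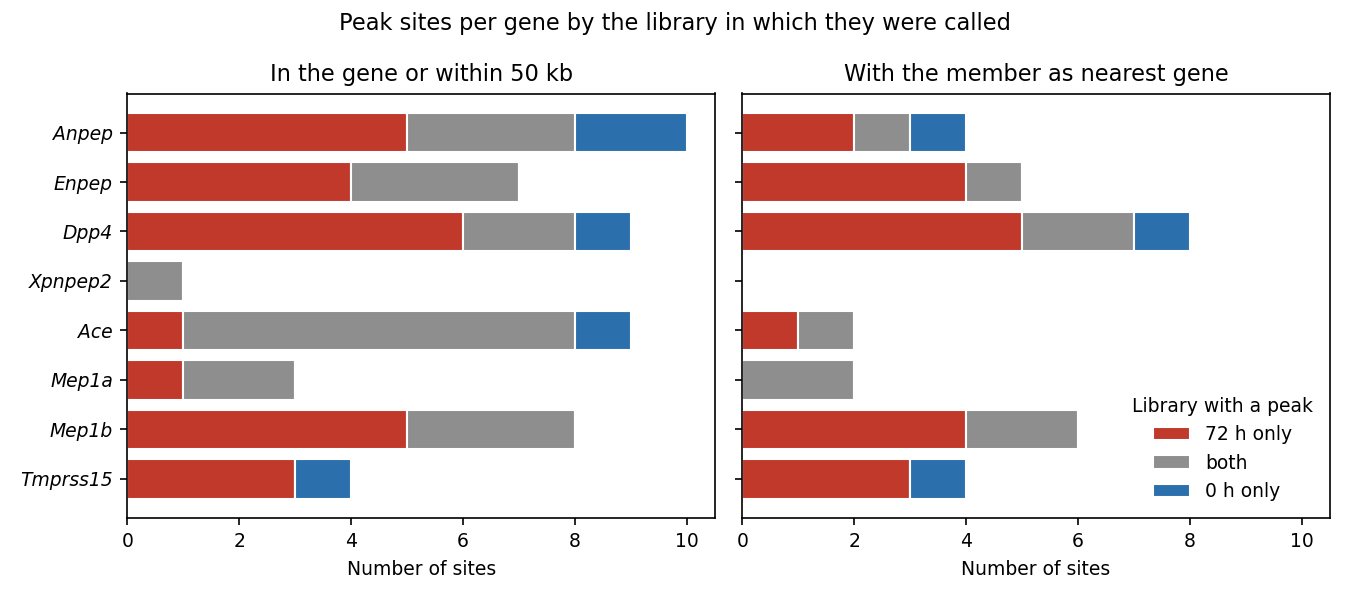
Number of merged sites per gene, by the library in which they were called, for all sites in the gene or within 50 kb (left) and for those with the member as nearest gene (right). Dpp4 has the most sites of its own at 72 h only, with 5, followed by Enpep and Mep1b with 4 each, and Xpnpep2 has no site of its own.

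Sites called in both libraries also differed in the threshold they passed. Of the 9 whose nearest gene was the member, 8 were strict at 72 h and weak at 0 h (88.9%, 51.8 to 99.7), 1 was strict in both, and 0 were strict at 0 h alone. The 8 include the start sites of Enpep, Dpp4, Ace and Mep1a given above, so they are not a result separate from those. Over all 23932 sites in both libraries, 14.2% were strict at 72 h alone. The share was 4.99% within 1 kb of a RefSeq start and 20.9% farther away. The other 12 shared sites of the same windows, which lie nearer another gene, were split more evenly: 3 were strict at 72 h alone (25.0%, 5.49 to 57.2), 2 at 0 h alone, 6 in both and 1 in neither. Both kinds together give 11 of 21 strict at 72 h alone, 52.4% (29.8 to 74.3). Since both lists carry no heights, passing the stricter threshold is not a measured fold.

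**Figure D3:**
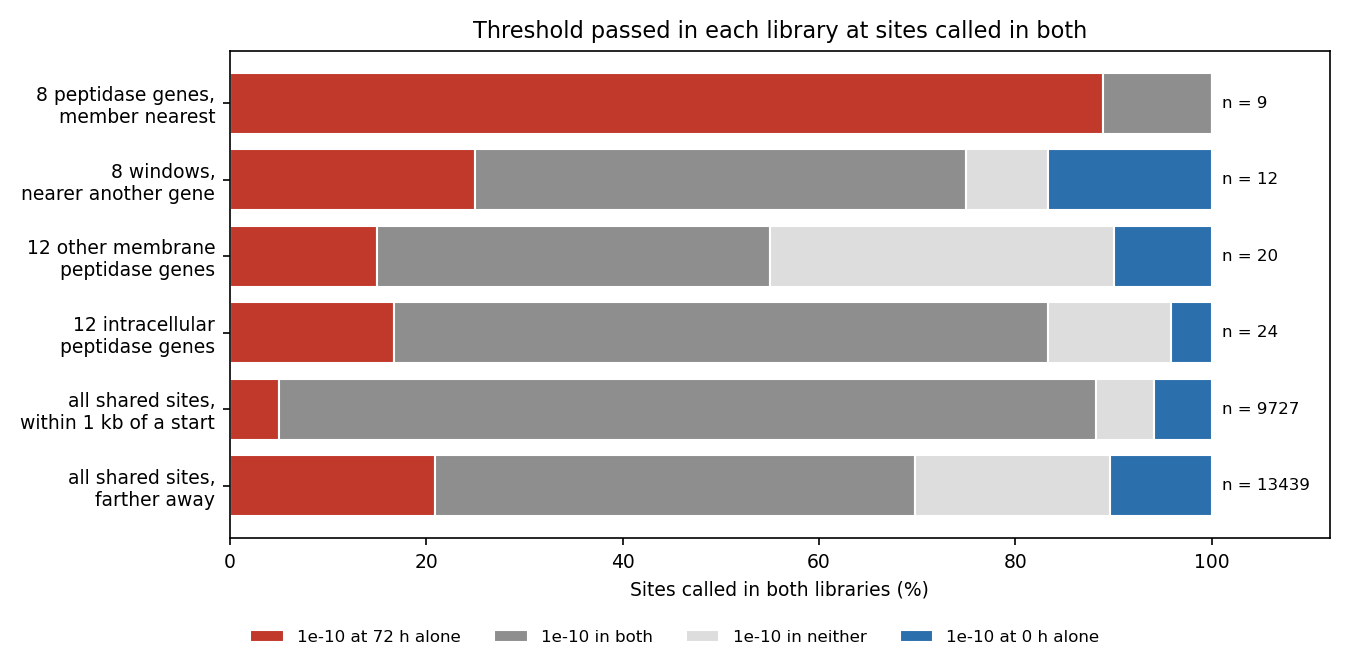
Sites called in both libraries, split by the threshold passed in each (percent of sites, n at the right). In the top row, the 9 sites at the 8 peptidase genes, 88.9% are strict at 72 h alone, against 4.99% and 20.9% of all shared sites within 1 kb of a start and farther away.

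Anpep encodes aminopeptidase N, which removes neutral residues from the amino end of peptides. The gene lies at 79821803 to 79848210 on chromosome 7 and is read toward lower coordinates. Of its 4 own sites, the weak 0 h peak over the start (79848007 to 79848607) had no 72 h peak within 5.31 kb. The site in both libraries, at 79842037 to 79842700 and 5.84 kb inside the gene, was strict at 72 h and weak at 0 h. Weak 72 h peaks stood alone inside the gene, 10.8 kb from the start at 79837144 to 79837744 and farther in at 79828867 to 79829467. In the flanks a site nearest Mesp2, a gene of somite patterning, was strict in both libraries, and one nearest Ap3s2 was weak at 72 h and strict at 0 h. Anpep thus had a start peak at 0 h only, while its own sites at 72 h only lay inside the gene and were weak. The flanks held further weak sites at 72 h only, nearer Wdr93 or Ap3s2. The 0 h peak numbering skips 1 number across the stretch that holds both weak 72 h peaks inside the gene, so a 0 h row may be missing there.

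Enpep encodes aminopeptidase A, which removes acidic residues and also trims angiotensin peptides. It lies at 129269177 to 129332749 on chromosome 3. The start site (129332450 to 129333066) was strict at 72 h and weak at 0 h. Upstream of it lay 4 sites called at 72 h only, and none of these had a 0 h peak within 3 kb. The 0 h peak nearest to them lay 3.01 kb from the outermost, at the edge of the 50 kb window. They were strict at 129342704 to 129343304 (10.3 kb upstream) and 129351336 to 129351936 (18.9 kb), and weak at 129346112 to 129346712 (13.7 kb) and 129378860 to 129379460 (46.4 kb). No peak lay in the rest of the gene, which spans 63.6 kb. The calls at 72 h only were therefore all on the start side of Enpep.

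Xpnpep2 encodes the membrane-bound aminopeptidase P, which cuts before proline at the second residue. It lies at 48106913 to 48136982 on the X chromosome and held no peak of its own in either library. The 1 site in its window, at 48143903 to 48144508 and 7.22 kb past the gene, was nearer to Sash3, an adaptor gene of lymphocytes, and was strict at 72 h and weak at 0 h. Absence of a call sets no limit on accessibility here, since depth is not known.

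Dpp4 encodes dipeptidyl peptidase 4, which removes dipeptides ending in proline or alanine and inactivates the incretin GLP-1. It lies at 62330073 to 62412315 on chromosome 2, read toward lower coordinates, and had the most sites of its own, 8. The start site (62411289 to 62412179) and one 8.01 kb upstream (62419914 to 62420576) were in both libraries, strict at 72 h and weak at 0 h. Strict sites at 72 h only lay 21.0 and 48.4 kb inside the gene (62390750 to 62391654 and 62363489 to 62364089) and 29.0 kb upstream (62440946 to 62441546). Weak 72 h peaks stood alone 8.43 and 43.5 kb inside the gene. Dpp4 also held the 1 strict site at 0 h only of all 8 members, at 62383091 to 62383691 and 28.8 kb inside the gene, between those strict 72 h-only sites, and 7.06 kb from the nearest 72 h peak. The calls within the gene thus went both ways. The 0 h numbering skips 1 number beside the sites 43.5 and 48.4 kb inside the gene. A further weak 72 h-only peak, at 62451505 to 62452105, was nearer to Gcg, the neighbouring gene that encodes glucagon and GLP-1.

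Ace encodes angiotensin-converting enzyme, a carboxydipeptidase of the brush border as well as of blood vessels. It lies at 105967948 to 105989964 on chromosome 11. The site at its first start (105967569 to 105968191) was strict at 72 h and weak at 0 h, and a weak 72 h peak stood alone 3.26 kb upstream, at 105964390 to 105964990. No peak was centred in the body of the gene or lay at its second start at 105975189, from which the testis form is transcribed. The other 7 sites of this window belong to Cyb561, Kcnh6 and Dcaf7, and 4 of them were strict in both libraries. The window of Ace had the most shared sites of the 8, 7 of 9, and held 7 of the 20 sites that lay nearer another gene.

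Mep1a and Mep1b encode the alpha and beta subunits of meprin, a zinc endopeptidase abundant in rodent brush border. Mep1a lies at 43474324 to 43504143 on chromosome 17. Its start site (43502497 to 43503107) was strict at 72 h and weak at 0 h. A second site 1.62 kb upstream, at 43504093 to 43504702 across the outer gene end, was strict in both libraries, the only own site of any member that was. A strict 72 h-only site at 43451124 to 43451724 lay inside the neighbouring gene Adgrf5. Mep1b lies at 21072344 to 21100199 on chromosome 18, and its distances are given from the nearer gene end. It had 6 sites of its own, all called at 72 h, and no 0 h peak among them was strict. Strict sites at 72 h only lay inside the gene at 21083902 to 21084502, and 4.27 and 13.6 kb outside it at 21104172 to 21104772 and 21113468 to 21114068. Between these, sites in both libraries at 21087817 to 21088460 and 21109011 to 21109616 were strict at 72 h and weak at 0 h. A weak 72 h-only peak lay over the gene end at 21071937 to 21072537. The 2 subunits thus differed in kind: the own sites of Mep1a were in both libraries, and 4 of 6 at Mep1b were called at 72 h only.

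Tmprss15 encodes enteropeptidase, a serine protease made mainly in the duodenum. It lies at 78953008 to 79091097 on chromosome 16, read toward lower coordinates, and shared no site between the libraries. At 72 h, a strict site lay 8.34 kb inside the gene (79082462 to 79083062), with weak ones over the start (79091078 to 79091678) and 32.2 kb inside (79058614 to 79059214). At 0 h there was 1 weak peak, 117.0 kb inside the gene near its far end, at 78973951 to 78974551. The nearest 0 h peak to each of the 72 h sites was 84.1 kb or more away.

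Of the 19 sites at 72 h only that had the member as nearest gene, 9 lay inside the gene and 10 outside. For the 15 at genes with a RefSeq start, the distance from the start had a median of 18.9 kb and ran from 0.281 to 48.4 kb. The 9 own sites in both libraries lay 4 inside and 5 outside, and 4 of them were start sites. Where a peak was shared in the 8 windows, the peaks usually lay almost on top of each other: 72 h peaks of 601 bp overlapped their 0 h counterparts by a median of 582.0 bp, from 279 to 599 bp.

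Further lists of peptidase genes, which share no gene with the members, were counted in the same way. Of 12 other membrane peptidase genes, 9 had a peak at 72 h with the gene itself nearest and 22 of their 49 such peaks were at 72 h only, 44.9% (30.7 to 59.8). Of 12 genes of intracellular peptidases, 10 had one and 9 of 36 peaks were at 72 h only, 25.0% (12.1 to 42.2). At 0 h, 4 of 24 (16.7%, 4.74 to 37.4) and 7 of 35 (20.0%, 8.44 to 36.9) were at 0 h only. Counted within 50 kb, the 72 h shares were 32.7% (23.7 to 42.7) and 22.5% (13.9 to 33.2), and the 0 h shares 10.1% (4.18 to 19.8) and 17.1% (9.43 to 27.5). Shared sites nearest these genes were strict at 72 h alone at 3 of 20 and 4 of 24, beside 8 of 9 for the members. The interval of the members' own peaks, 49.2 to 84.7, overlaps that of the other membrane peptidases and not that of the intracellular ones. These intervals too are too narrow, since the peaks of a gene are not independent, so their overlap or lack of it does not separate the lists. Differences between the lists were not tested, and the 0 h intervals of all 3 lists overlap.

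**Figure D4:**
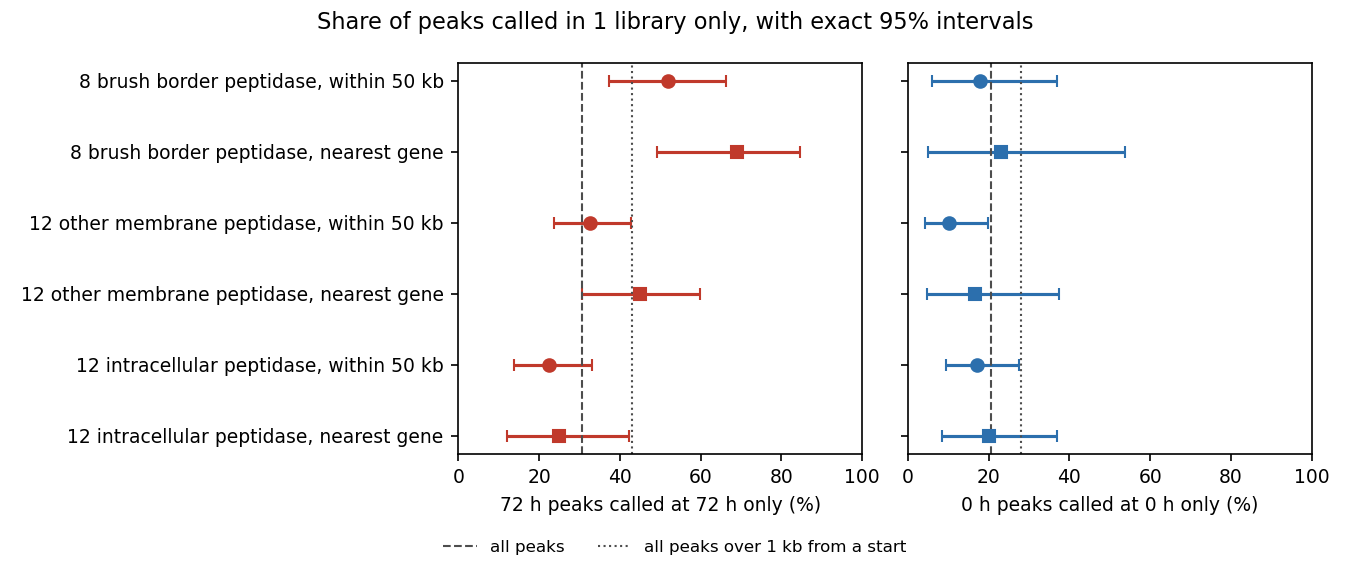
Percent of 72 h peaks called at 72 h only (left) and of 0 h peaks called at 0 h only (right) for the 3 lists, counted within 50 kb (circles) or by nearest gene (squares). Bars are exact 95% intervals for counting error, and vertical lines give the share over all peaks and over all peaks farther than 1 kb from a start. The 8 members sit at 52.0% and 69.0% on the left, right of the line for all peaks at 30.6%. The line for peaks farther than 1 kb from a start, at 42.9%, lies inside the interval of the 52.0%. No share by nearest gene over all peaks is given beside the 69.0%.

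Within the membrane list, Tmprss2, a transmembrane serine protease, had 7 sites at 72 h only in its window, of which 4 were strict, and Ggt1, the gamma-glutamyltransferase of glutathione breakdown, had 6, of which 3 were strict. Mme, which encodes neprilysin, had 5, of which 3 were strict. Cpm (carboxypeptidase M) and Tmprss4 had 3 each, of which 1 was strict at each gene. Dpep1, Naaladl1 and St14 had 2 each, all weak. With the gene itself nearest, 72 h-only sites numbered 5 at Tmprss2, 4 at Ggt1, 5 at Mme, 3 at Tmprss4 and 2 at Naaladl1. They numbered 1 at Cpm, 1 at Dpep1 and 0 at St14. Tmprss2 also had 4 sites at 0 h only, of which 2 were strict. Among the intracellular peptidases, Cndp2 and Dpp7 had 4 sites each at 72 h only in their windows, Pepd (the proline dipeptidase) 3 and Npepps 2. Of these, 2 at Cndp2 were strict and the others weak, and none of the 12 genes had a strict site at 0 h only. With the gene itself nearest, 72 h-only sites numbered 1 at Cndp2, 0 at Dpp7, 2 at Pepd and 2 at Npepps. At their starts, 10 of the 12 intracellular genes were strict in both libraries, whereas the 12 other membrane genes had strict start peaks at 6 at 72 h and 4 at 0 h.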

How the data were processed

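ATAC-seq peak lists of 2 libraries, 72 h and 0 h, were used. The submitters' processing notes name the mm10 build and, for peaks and intervals, MACS2 2.2.7.1, bedtools 2.26.0 and deepTools 3.5.4. For reads they name Bowtie2 2.4.1, cutadapt 1.9.1, Picard 2.18.27 and SAMtools 1.3.1. Whether cut sites were shifted for Tn5 or duplicates dropped is not stated in them. The authors deposited positions and names of peaks, called per library, with no score, count or p-value per peak. Nearly all rows span 601 bp. Every 1e-10 peak is also in the 1e-05 list. Peak numbers without a row came to 740 at 72 h and 1427 at 0 h.

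Genes came from a RefSeq table of GRCm38.p6 and starts from its promoter windows. Mep1b was placed by its gene ends, as were 13 of the other listed genes. Overlapping peaks of both libraries were merged into sites, and each site was assigned to the protein-coding gene that holds its midpoint or lies nearest. Coordinates are 1-based. Every site of the 8 members is covered. Of the other peptidase genes, those with 2 or more sites at 72 h only or a strict one at 0 h only are named, except an item that is not reported here. The members, lists and rules were chosen with earlier results of these data known. The overlap and merging steps were checked on simulated peaks. Alternatives changed the window, the assignment, the overlap, the thresholds and the members. Intervals came from SciPy 1.17.1 under Python 3.11.15, tables from pandas 2.3.3 and numpy 2.4.6, and figures from matplotlib 3.10.9.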

Additional observations from a re-analysis of the deposited data

How the results depend on the processing

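The share of 72 h peaks at 72 h only over the 8 genes, 52.0%, ran from 34.5% to 72.4% under 10 alternatives. It was 71.4% in gene bodies only (10 of 14, 41.9 to 91.6), a setting for which no share over all peaks is given. With the member as nearest gene it was 69.0%, and among 1e-10 peaks of both libraries 72.4% (32.4% over all peaks). It was 34.5% for 1e-10 peaks set against 1e-05 peaks of the other library (18.1% over all peaks). With 1 gene left out at a time it ran from 46.3% without Dpp4 to 62.5% without Ace. The share of 0 h peaks at 0 h only, 17.9%, was 30.0% among 1e-10 peaks of both libraries (17.2% over all peaks) and 10.0% for 1e-10 peaks against 1e-05 peaks of the other library (6.4% over all peaks), which were its highest and lowest values. It ran from 13.0% to 21.1% with 1 gene left out. The 26 peaks at 72 h only became 14 within 10 kb. The share of shared sites strict at 72 h alone, 52.4%, was 90.0% within 10 kb and 88.9% with the member nearest. Leaving out peaks that lie where the numbering of the other library skips was an alternative added after seeing the data. It gave 45.5% at 72 h (20 of 44, 30.4 to 61.2) and 14.8% at 0 h (4 of 27, 4.19 to 33.7). This 72 h interval contains the share over all 72 h peaks, 30.6%, and that over 1 kb from any RefSeq start, 42.9%. Both of those shares were taken without this exclusion. No paired analysis was possible because each time point is 1 library.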

Other observations

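The peak numbers of each library run along the genome, so a skipped number shows where a row is missing from the lists used here. Of the 25 sites at 72 h only in the 8 windows, 6 lay where the 0 h numbering skips, 4 at Anpep and 2 at Dpp4. A 0 h peak may have stood anywhere in those stretches. None of the 72 h-only sites at Enpep, Ace, Mep1a, Mep1b and Tmprss15 lay in such a stretch. Of the 5 sites at 0 h only, 1 did, the one in Mesp1 near Anpep.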
